A study of Caenorhabditis elegans with 20 samples.

Results

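P granule genes are described here by 6 members, pgl-1, pgl-3, glh-1, glh-2, glh-4 and deps-1, out of 39341 genes in the expression tables. The members were chosen by name as genes that encode constitutive proteins of P granules or a protein needed to assemble them. Each of the 6 was found in both tables, and each passed the filter on low values (5 CPM or more, in reads of a gene per 1000000 reads of the library, in 2 or more libraries of an experiment). The gene pgl-3 was below 5 CPM in 3 libraries of the second experiment and passed through the other libraries.

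P granules are condensates of RNA and protein that lie at the outer face of the nuclear envelope in the germ cells of Caenorhabditis elegans, opposite the nuclear pores. PGL-1 and PGL-3 are the scaffold proteins that phase separate and hold the granule together, the GLH proteins are DEAD-box RNA helicases related to Vasa of Drosophila, and DEPS-1 is a protein needed for PGL-1 to gather in granules. The granules are known for sorting germline messenger RNAs, for work with small RNA pathways and for keeping germ cell identity, and their transcripts come largely from the gonad, which grows rapidly around the last larval stage.

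The 20 libraries, 2 per group, hold RNA of pooled, staged whole animals labelled L4, and the study's methods describe late L4 or early young adult animals. The 8 libraries of the first experiment form 4 groups, of wild type or Δnhr-114 animals that spent 48 h on Escherichia coli OP50 with soy peptone and either 0 or 25 mM methionine. The 12 of the second form 6 groups. There, 3 strains, namely wild type, Δmetr-1 and the double mutant metr-1(ww52);Δnhr-10, received 20 nM vitamin B12 for 48 h on E. coli HT115 with either empty vector or nhr-114 RNAi. The second experiment asks whether the response to a broken methionine cycle needs nhr-114: METR-1 is the vitamin B12-dependent methionine synthase, while NHR-114 and its relative NHR-10 belong to the nuclear hormone receptors.

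Wild type means strain VL749 throughout, which carries the reporter wwIs24[Pacdh-1::GFP;unc-119(+)], and all the mutant strains carry the same reporter. The deletion strains are VL1127 with nhr-114(gk849) and VL1102 with metr-1(ok521). The strain VL1201 carries metr-1(ww52) together with nhr-10(tm4695), so the effects of these alleles cannot be told apart in it, and it is called the double mutant from here on. Nothing in the labels says whether the 2 libraries of a group came from separate cultures, and the study's methods call them biological replicates.

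Depth per library was 1389117 to 24482380 reads (first experiment) and 2542155 to 16025927 reads (second), and 3 reads, the limit that a count of 0 allows, corresponded to between 0.123 and 2.16 CPM. The members rested on at least 30 reads in each library. In Δnhr-114 the nhr-114 level was 0.408 to 0.703 CPM, against 5.41 to 36.6 CPM in wild type. In the second experiment 3 libraries had nhr-114 levels against their label: nhr-114 was at 193 to 391 CPM in replicate 1 of each group labelled nhr-114 RNAi, against 3.16 to 46.3 CPM on vector and 2.30 to 7.94 CPM in replicate 2. In both replicates metr-1 was lower on RNAi than on vector in Δmetr-1 (30.3 and 45.7 against 372 and 468 CPM) and the double mutant (130 and 116 against 555 and 462 CPM). In wild type it was not (94.5 and 73.7 against 59.8 and 69.4 CPM). The source of the nhr-114 reads in those 3 libraries was not tested. Results on RNAi are therefore given with and without those 3 libraries. The 3′ reads of metr-1 and nhr-10 were still counted in the mutants. Whether they fall outside the mutated stretch is not known here, so they do not check the labels of the metr-1 and nhr-10 mutations. Among the 20 libraries, 3 stood apart most from the other replicate of their group by high sums of oocyte and yolk markers and low sums of cuticle markers. They were replicate 1 of Δmetr-1 on vector, replicate 2 of the double mutant on RNAi and replicate 2 of Δnhr-114 without methionine. Replicate 2 of Δmetr-1 on RNAi differed in the same direction by less. Its oocyte sum was 2028 against 753 CPM, its yolk sum 5137 against 2732 CPM and its cuticle sum 1317 against 3696 CPM. So did replicate 1 of Δnhr-114 with methionine, at 1674 against 485, 386 against 46.8 and 5918 against 8579 CPM. Replicate 1 of wild type on vector and on RNAi also differed in this direction. The 3 libraries named first were not alike in all oocyte-related sums. Embryonic germ plasm factors, loaded into oocytes, summed to 2660 against 606 CPM in that Δmetr-1 library and its other replicate. They summed to 2671 against 511 CPM in that Δnhr-114 library, but to 472 against 438 CPM in that double mutant library.

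The main result was that the 6 P granule genes were lowest in both metr-1 mutant strains on bacteria labelled nhr-114 RNAi. For each member, the 4 libraries of these groups lay below the other 8 libraries of the second experiment. The share of all genes with this pattern was not counted. In the single comparisons of a mutant on RNAi with its vector or with wild type on RNAi, 32.8% to 39.1% of all genes were lower without overlap. Within Δmetr-1 the mean level was 4.15-fold (glh-1) to 9.02-fold (pgl-3) lower on RNAi than on vector, and within the double mutant it was 1.97-fold (glh-2) to 3.61-fold (deps-1) lower. In wild type the libraries on vector and on RNAi overlapped for all 6. Of the 11543 genes tested, 1970 were lower and 1582 higher there on RNAi without overlap. In bulk libraries of whole animals, fewer germ cells and less RNA per germ cell cannot be told apart.

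**Figure D1:**
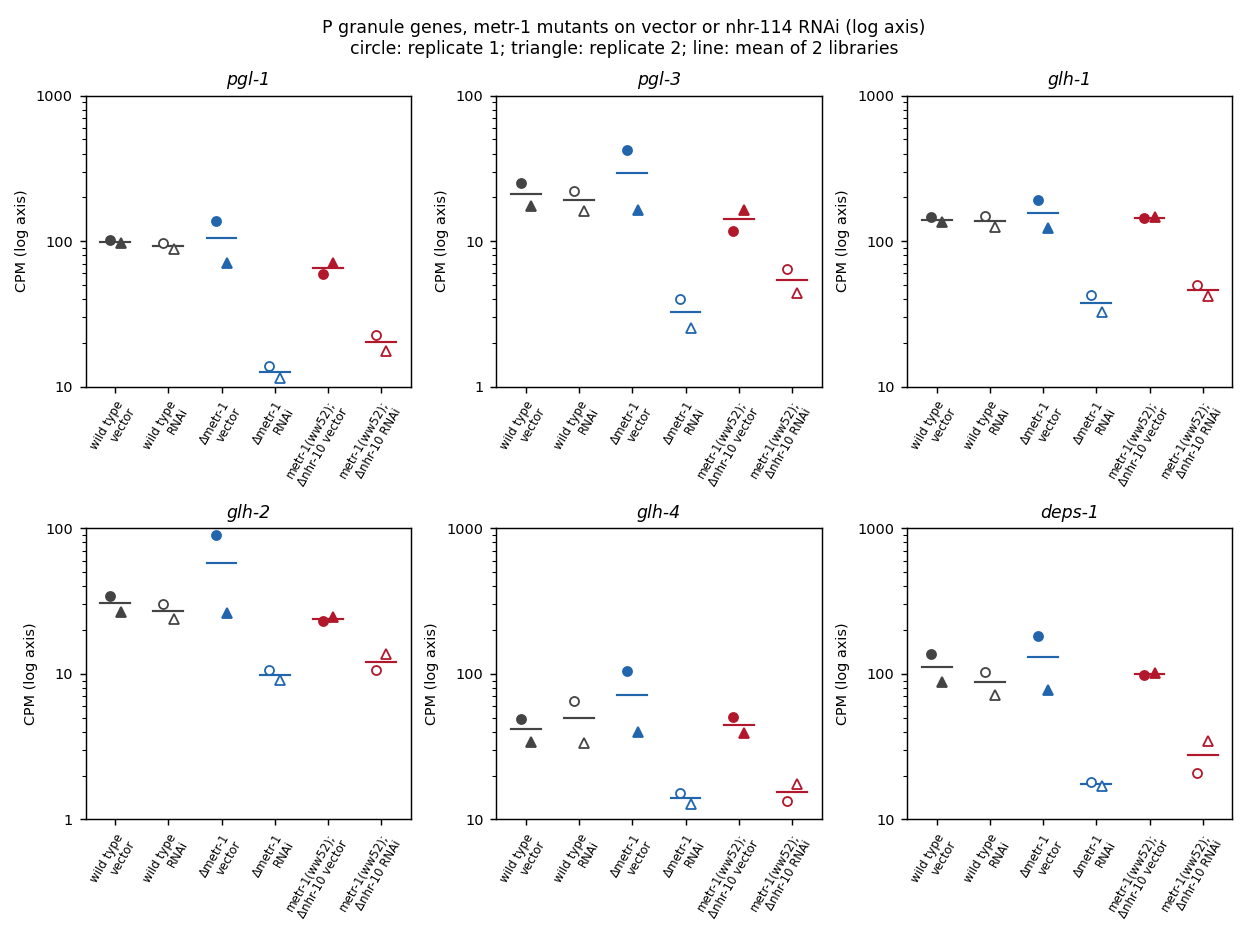
Level of each P granule gene in the 12 libraries of the second experiment, in CPM on log axes, by strain and bacteria (filled, vector; open, nhr-114 RNAi; circle, replicate 1; triangle, replicate 2; line, mean of 2 libraries). The open blue and open red points of the metr-1 mutants lie below all the other points in each panel, and replicate 1 of Δmetr-1 on vector is the highest point of each panel.

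The scaffold gene pgl-1 (WBGene00003992) lies on chromosome IV, 6974441 to 6977318, minus strand of WBcel235, with 9 exons and 771 codons in its longest model. On vector it was at 102 and 96.5 CPM for wild type, 137 and 71.3 CPM for Δmetr-1 and 59.0 and 71.0 CPM for the double mutant. On RNAi it was at 96.7 and 88.9 CPM for wild type, 13.8 and 11.5 CPM for Δmetr-1 and 22.6 and 17.7 CPM for the double mutant. The RNAi libraries of both mutants were thus separated from their vector libraries and from wild type on RNAi. On the scale of log2(CPM + 1), pgl-1 fell by 2.88 ± 0.32 (SE) on RNAi in Δmetr-1 (limma with Benjamini-Hochberg adjustment, adjusted p = 0.000718) and fell by 1.65 ± 0.32 in the double mutant (limma adjusted p = 0.00883).

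The second scaffold gene, pgl-3 (WBGene00003994; chromosome V, 4755979 to 4758587, plus strand, 8 exons, 693 codons), had the lowest values in reads. On vector it was at 25.1 and 17.3 CPM for wild type, 42.2 and 16.4 CPM for Δmetr-1 and 11.8 and 16.5 CPM for the double mutant. On RNAi it was at 22.0 and 16.2 CPM for wild type, 3.97 and 2.53 CPM for Δmetr-1 and 6.48 and 4.38 CPM for the double mutant, and the 4 mutant values rested on 31 to 68 reads each. The groups did not overlap between RNAi and vector in either mutant. The log2 change was -2.71 ± 0.45 (SE) in Δmetr-1 (limma adjusted p = 0.00217), a called fall, and -1.24 ± 0.45 in the double mutant (limma adjusted p = 0.0913), which did not pass.

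The helicase gene glh-1 (WBGene00001598; chromosome I, 6854478 to 6857536, plus strand, 7 exons, 763 codons) encodes a DEAD-box helicase that stays in P granules throughout life. On vector it was at 145 and 135 CPM for wild type, 190 and 124 CPM for Δmetr-1 and 143 and 146 CPM for the double mutant. On RNAi it was at 149 and 124 CPM for wild type, 42.9 and 32.8 CPM for Δmetr-1 and 49.8 and 41.9 CPM for the double mutant. It had the smallest standard error of the 6, and it was called in both mutants, where it fell by 2.00 ± 0.26 (SE) on the log2 scale in Δmetr-1 (limma adjusted p = 0.000956) and fell by 1.64 ± 0.26 in the double mutant (limma adjusted p = 0.00435).

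Its close paralog glh-2 (WBGene00001599; chromosome I, 6513928 to 6517507, plus strand, 9 exons, 974 codons) was at 34.5 and 26.6 CPM for wild type, 89.7 and 26.1 CPM for Δmetr-1 and 23.2 and 24.8 CPM for the double mutant on vector. On RNAi it was at 30.2 and 23.7 CPM for wild type, 10.7 and 9.09 CPM for Δmetr-1 and 10.7 and 13.6 CPM for the double mutant. The vector libraries of Δmetr-1 differed widely, and every RNAi library of the mutants was below every vector library. The log2 change was -2.19 ± 0.47 (SE) in Δmetr-1 (limma adjusted p = 0.00800), a called fall, and -0.93 ± 0.47 in the double mutant (limma adjusted p = 0.212), with a 95% interval from -1.98 to 0.11. The authors' counter placed reads that map to several places, so the split of reads between glh-1 and glh-2, and between pgl-1 and pgl-3, is uncertain.

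The third helicase gene, glh-4 (WBGene00001601; chromosome I, 3727027 to 3731179, plus strand, 9 exons, 1156 codons), was at 49.1 and 34.2 CPM for wild type, 104 and 39.8 CPM for Δmetr-1 and 50.4 and 39.4 CPM for the double mutant on vector. On RNAi it was at 65.5 and 33.5 CPM for wild type, 15.3 and 12.8 CPM for Δmetr-1 and 13.4 and 17.6 CPM for the double mutant. The log2 change was -2.13 ± 0.46 (SE) in Δmetr-1 (limma adjusted p = 0.00836), a called fall, and -1.48 ± 0.46 in the double mutant (limma adjusted p = 0.0595). The gene T12F5.2 starts 173 bases downstream on the same strand, within the 1000 bases that the authors' counter allows beyond an annotated 3′ end, and was itself at 6.89 to 52.4 CPM in these 12 libraries. Its part in the glh-4 values was not tested.

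The gene deps-1 (WBGene00022034; chromosome I, 506473 to 509056, plus strand, 12 exons, 619 codons) was at 136 and 88.1 CPM for wild type, 183 and 78.1 CPM for Δmetr-1 and 98.0 and 101 CPM for the double mutant on vector. On RNAi it was at 104 and 71.8 CPM for wild type, 18.0 and 17.0 CPM for Δmetr-1 and 20.7 and 34.5 CPM for the double mutant. The mutant RNAi libraries were again below every other library. The log2 change was -2.71 ± 0.42 (SE) in Δmetr-1 (limma adjusted p = 0.00164), a called fall, and -1.86 ± 0.42 in the double mutant (limma adjusted p = 0.0164), short of the threshold. The gene overlaps Y65B4BL.7 on the opposite strand, which was at 0.903 to 5.39 CPM, and no source used here says if reads were counted by strand.

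Calls required an adjusted p below 0.01 and more than 1.5-fold change. Counts of called members with a library left out, here and below, come from fits in which the share of all genes called can change too. They show how far calls depended on single libraries, and they are no result about the members. On RNAi in Δmetr-1, 6 of 6 members were called lower, where 11% of the 11543 genes tested were called lower and 1.52% higher, and 6 of 6 had non-overlapping, lower libraries, as had 36.7% of all genes. The median log2 change of the 6 was -2.45, and that of all genes tested was -0.11. The count depended most on the RNAi libraries of Δmetr-1: 1 member was called without replicate 1 of Δmetr-1 on RNAi and 2 without its replicate 2. Between 4 and 6 were called without any other single library, and the median change ran from -1.87 without replicate 1 of Δmetr-1 on vector to -3.19 without its replicate 2. Of 22 alternatives, 18 to 20 kept the call of pgl-1, pgl-3, glh-1 and deps-1. Only 7 kept that of glh-2 and 8 that of glh-4. Among the 22, 12 left out 1 library each, and another left out the 3 RNAi libraries of replicate 1. The rest changed the processing.

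On RNAi in the double mutant, 2 of 6 members, pgl-1 and glh-1, were called lower, against 3.38% of all genes tested. All 6 had lower, non-overlapping libraries on RNAi, as had 37.6% of all genes, and the median log2 change was -1.56 for the 6 and -0.09 for all genes. The count of called members was small enough for single libraries to decide it. It was 0 without any 1 of the 4 libraries of this strain, 1 without any 1 of the 4 wild type libraries or either Δmetr-1 library on RNAi, and 3 without either Δmetr-1 library on vector. Without replicate 2 on RNAi, the library with high oocyte and yolk sums, the median change was -1.50. Of the 22 alternatives, 7 kept the call of pgl-1 and 15 that of glh-1.

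The mutant strains were also compared with wild type directly on RNAi, a pair of comparisons that share the wild type libraries with each other and the mutant libraries with those above. In Δmetr-1, 4 of 6 members were called lower, against 10% of all genes tested: pgl-1 (-2.78 ± 0.32 SE on the log2 scale, limma adjusted p = 0.000286), glh-1 (limma adjusted p = 0.000852), deps-1 (limma adjusted p = 0.00308) and pgl-3 (limma adjusted p = 0.00428). The helicase genes glh-4 (-1.68 ± 0.46, limma adjusted p = 0.0207) and glh-2 (-1.36 ± 0.47, limma adjusted p = 0.0521) did not pass. In the double mutant, 2 of 6 were called lower, against 7.1% of all genes, namely pgl-1 (-2.16 ± 0.32, limma adjusted p = 0.00122) and glh-1 (-1.55 ± 0.26, limma adjusted p = 0.00254). With DESeq2 the count called lower was 5, beside 9.91% of all genes. In limma the other 4 changed by -1.65 to -1.09 with limma adjusted p from 0.0167 to 0.119. All 6 were lower without overlap in both comparisons, as were 39.1% and 32.8% of all genes. The count in Δmetr-1 was 2 without either wild type library on RNAi or without replicate 1 of Δmetr-1 on RNAi, 1 without its replicate 2, and 6 without either Δmetr-1 library on vector. The count in the double mutant was 0 without either wild type library on RNAi or without its own replicate 2 on RNAi, 1 without replicate 1, and 5 without either Δmetr-1 library on vector.

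**Figure D2:**
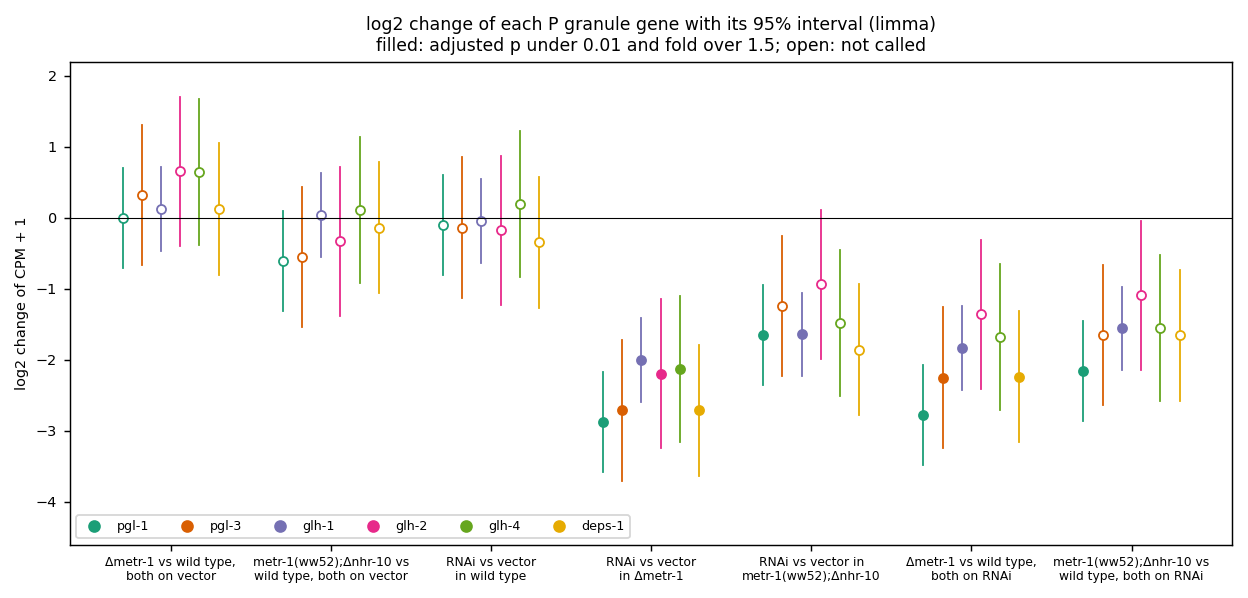
Change of each P granule gene in the 7 comparisons of groups in the second experiment, on the scale of log2(CPM + 1), with 95% intervals from limma. Filled points were called (adjusted p under 0.01 and fold over 1.5) and open points were not. The intervals include 0 for all 6 genes in the 3 comparisons on the left, and in the 4 comparisons with a mutant on RNAi only the interval of glh-2 in metr-1(ww52);Δnhr-10 on RNAi against vector includes 0.

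Without the 3 libraries in which nhr-114 went against the label, each mutant had 1 RNAi library, assumed to vary like the other groups. In both mutants that library was replicate 2, which had higher oocyte and yolk sums and a lower cuticle sum than replicate 1. This fit therefore rests on libraries that differed from their replicate in those markers. The changes on RNAi then ran from -2.995 (pgl-1) to -2.19 (glh-1) on the log2 scale in Δmetr-1 and from -1.81 (pgl-1) to -0.77 (glh-2) in the double mutant. No member was called in either, with limma adjusted p from 0.0391 to 0.0871 in Δmetr-1 and from 0.0681 to 0.564 in the double mutant. The same fit called 0 of all genes tested in these comparisons, and at an unadjusted p under 0.05 it had 6 of 6 members in Δmetr-1 (28.2% of all genes) and 4 of 6 in the double mutant (20% of all genes). The changes against wild type on RNAi ran from -2.84 to -1.29 in Δmetr-1 and from -2.26 to -0.75 in the double mutant, again with 0 members called, where 3 and 2 of all genes were called, each of them higher. At an unadjusted p under 0.05 there were 4 and 3 members, beside 26.6% and 23.2% of all genes.

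Whether the change on RNAi differed between a mutant and wild type was tested as an interaction. For Δmetr-1 the difference ran from -2.78 (pgl-1) to -1.96 (glh-1) on the log2 scale, with limma adjusted p from 0.0199 to 0.0922, and no member was called, where 4 of 11543 genes (0.0347%) were. At an unadjusted p under 0.05 the count was 6 of 6, beside 27% of all genes tested. DESeq2 on the recovered reads called 5 of the 6 lower (5.67% of all genes), edgeR called 0 of the 6 (0%), and limma called 6 lower without replicate 2 of Δmetr-1 on vector, a fit that called 6.16% of all genes lower. For the double mutant the difference ran from -1.67 (glh-4) to -0.76 (glh-2), with limma adjusted p from 0.0624 to 0.577. No member was called by limma, which called 0.0173% of all genes, 4 of 6 had an unadjusted p under 0.05, as had 19.5% of all genes, DESeq2 called 1 lower (glh-1), with 1.39% of all genes, and edgeR called 0.

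For each of the 6 genes the group means of the second experiment were lowest in Δmetr-1 on RNAi and next lowest in the double mutant on RNAi. The libraries of these 2 groups overlapped for glh-1 and glh-4 and did not for the others, although the gap was under 0.01 CPM for glh-2, and no test compared them. The highest mean was in Δmetr-1 on vector for all 6, by way of replicate 1 alone. Replicate 2 of that group was below the lowest wild type library for pgl-1 (71.3 against 88.9 CPM) and glh-1 (123.6 against 124.2 CPM), and above it for pgl-3, glh-2, glh-4 and deps-1.

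Not all pairs of members kept their proportions. The ratio of pgl-1 to glh-1 counts within a library was 0.648 to 0.715 in wild type on either bacteria and 0.722 and 0.576 in Δmetr-1 on vector. It was 0.322 and 0.352 in Δmetr-1 on RNAi, and in the double mutant it was 0.412 and 0.487 on vector and 0.454 and 0.422 on RNAi. In Δmetr-1 the ratio was thus lower on RNAi without overlap, whereas in the double mutant it overlapped between vector and RNAi and lay below wild type on both. In Δmetr-1 deps-1 to glh-1 was also lower on RNAi, at 0.419 and 0.520 against 0.964 and 0.632 on vector. The ratios pgl-3 to pgl-1, glh-2 to glh-1, glh-4 to glh-1 and deps-1 to pgl-1 overlapped there between RNAi and vector. In the double mutant pgl-3 to pgl-1 and glh-2 to glh-1 were higher on RNAi without overlap, and the other ratios overlapped. With 2 libraries a group, an exact permutation test cannot go below p = 0.333, so these ratios are given without a test.

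Germline markers, which mark the cells that hold P granules, were lower in the same libraries. The 9 genes were glp-1, which is not specific to meiosis, and him-3, htp-1, htp-3, syp-1, syp-2, syp-3, rec-8 and rad-51. They are called meiosis genes here. The summed level of 9 meiosis genes was 212 and 244 CPM in Δmetr-1 on RNAi and 252 and 324 CPM in the double mutant on RNAi, against 496 to 891 CPM in the other 8 libraries. None of the 9 was at 0 in any library. On RNAi in Δmetr-1, 5 of 9 fell (median log2 change -1.63), with rec-8, syp-2 and htp-1 changing most, and in the double mutant 0 of 9 were called by limma or edgeR (median -0.82), 6 of them with an unadjusted limma p under 0.05, as had 30.6% of all genes. Divided by this sum, the summed level of the 6 P granule genes was 0.494 and 0.351 in Δmetr-1 on RNAi and 0.490 and 0.401 in the double mutant on RNAi. The same ratio was 0.572 to 0.941 in the other 8 libraries of the experiment, without overlap. Such a ratio depends on the genes it is divided by, and no other list was used. The 11 germline translation regulators described below summed to 161 and 167 CPM in Δmetr-1 on RNAi, against 1395 and 509 CPM on vector. In the double mutant they summed to 234 and 267 CPM on RNAi, against 419 and 453 CPM on vector. The part of a smaller germline in the P granule values was not tested.

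**Figure D3:**
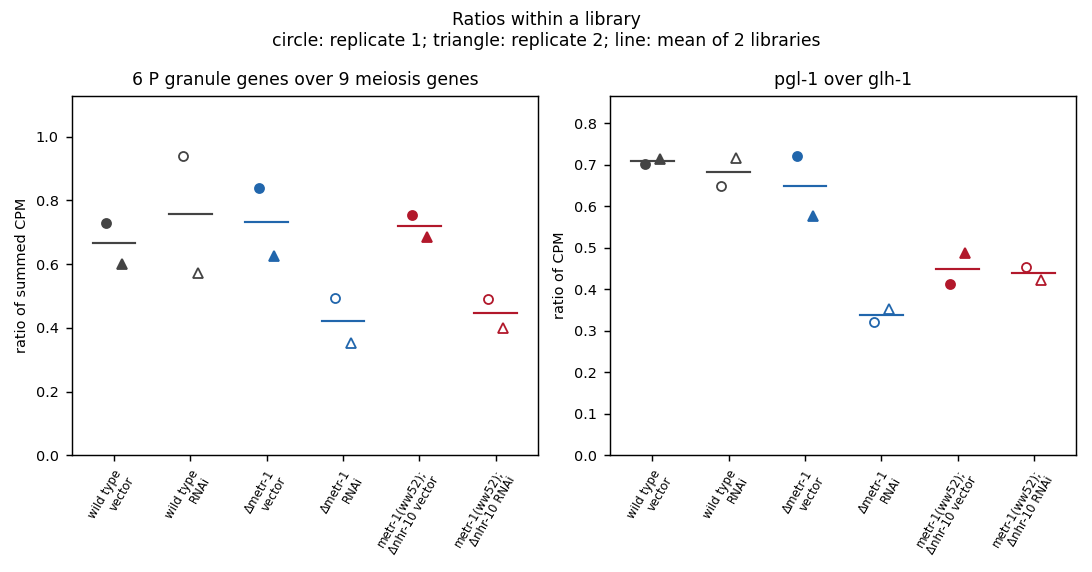
Left, summed CPM of the 6 P granule genes divided by the summed CPM of 9 meiosis genes, and right, pgl-1 divided by glh-1, per library of the second experiment (symbols as in the plot of levels by library; axes start at 0). The 4 mutant libraries on RNAi lie at 0.351 to 0.494 on the left, below the other 8, and on the right the 2 Δmetr-1 libraries on RNAi lie lowest, at 0.322 and 0.352.

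Markers of other cells moved too. The 10 sperm genes summed to 94.3 to 118 CPM in the mutants on RNAi and to 342 to 808 CPM in the mutants on vector, with wild type between (157 to 215 CPM). In Δmetr-1, 6 of 9 tested sperm genes fell on RNAi, and in the double mutant 2 of 9 did, fog-3 and gsp-3. The 10 oocyte genes summed to 753 and 2028 CPM in Δmetr-1 on RNAi, against 3753 and 466 CPM on vector. In the double mutant they summed to 416 and 2370 CPM on RNAi, against 328 and 454 CPM on vector. The genes perm-2 and perm-4 had positive changes where the other 8 had negative ones. On RNAi in Δmetr-1, 4 of the 10 were called and 8 had an unadjusted limma p under 0.05 (42.2% of all genes). In the double mutant 0 were called and 1 had such a p (30.6% of all genes). The 3 yolk genes, which are expressed in the adult intestine, summed to 2732 and 5137 CPM in Δmetr-1 on RNAi, 300 and 3178 CPM in the double mutant on RNAi and 2580 and 53.0 CPM in Δmetr-1 on vector, against 96.8 to 417 CPM in the other 6 libraries. The 8 cuticle genes summed to 3696 and 1317 CPM and to 7158 and 1816 CPM in the mutants on RNAi and to 1864 and 9276 CPM in Δmetr-1 on vector, against 4680 to 9905 CPM in the other 6. The 5 intestine genes summed to 1465 to 1715 CPM in the mutants on RNAi and to 1767 to 4043 CPM elsewhere. The 6 body wall muscle genes summed to 5995 and 6014 CPM in Δmetr-1 on RNAi, against 14634 and 12695 CPM on vector, and to 6183 and 4343 CPM in the double mutant on RNAi, against 12175 and 7406 CPM on vector. In wild type on either bacteria that sum was 4118 to 5755 CPM. The body wall myosin gene unc-54 fell on RNAi in Δmetr-1 (log2 change -2.86, limma adjusted p = 0.00835) and had a log2 change of -2.26 in the double mutant, which was not called. The other 5 muscle genes, with 0 called, had log2 changes of 0.10 to 0.41 and of -0.14 to 0.31. In Δmetr-1 the lower muscle sum on RNAi thus came through unc-54 and does not show a fall of muscle genes as a list. None of the genes in these lists was at 0 in any library. The paper reports that nhr-114 RNAi strongly delayed development of methionine cycle mutants in a Δnhr-10 background. It saw no such delay in their Δnhr-10 parental strain. The part of these cells, and of stage, in the P granule values was not tested.

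**Figure D4:**
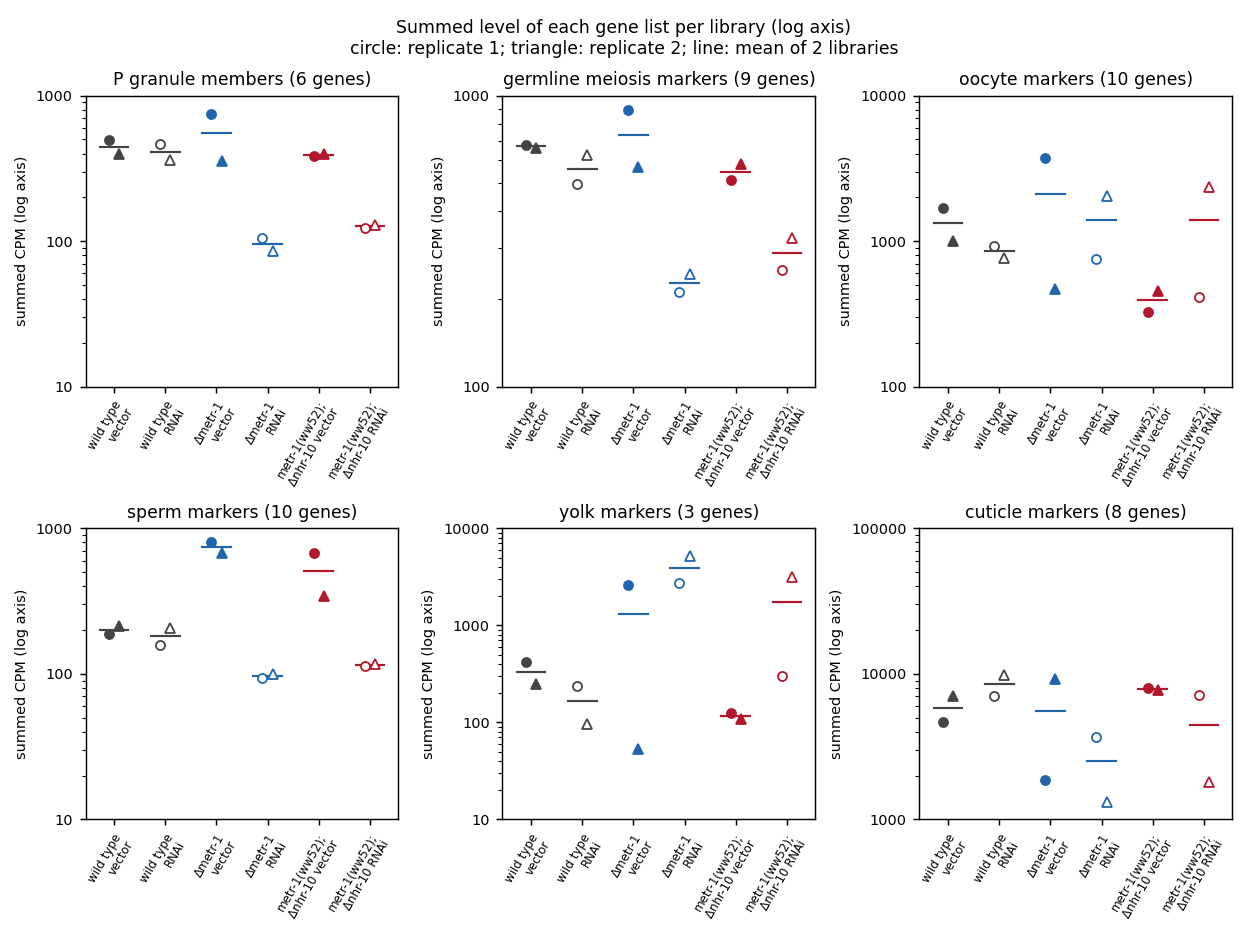
Summed level, in CPM on log axes, of the P granule genes and 5 lists of marker genes per library of the second experiment (symbols as in the plot of levels by library). The P granule, meiosis and sperm sums of the 4 mutant libraries on RNAi lie below those of the other 8 libraries, while yolk and oocyte sums vary within groups.

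Other genes of germ granules and of the germline were counted in lists of related function. Among 12 other germ granule proteins, 5 fell on RNAi in Δmetr-1 and 0 rose (median log2 change -1.50), with mip-1 (-2.53), which encodes a P granule protein that binds PGL and GLH proteins, cgh-1 (-2.15), an RNA helicase of germ granules and processing bodies, and car-1 (-1.87), an RNA-binding partner of CGH-1, changing most. The remaining family members pgl-2 and glh-3 were at 6.14 and 6.13 CPM and at 5.96 and 5.70 CPM in Δmetr-1 on RNAi, and did not pass (limma adjusted p = 0.0113 and 0.0157). In the double mutant, 0 of the 12 were called on RNAi by limma or edgeR (median -0.61), and 2 had an unadjusted limma p under 0.05, a smaller share than the 30.6% of all genes. Against wild type on RNAi, 3 of 12 fell in Δmetr-1 and 1, mip-1, in the double mutant.

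Of 16 tested germline small RNA factors, 6 fell on RNAi in Δmetr-1 (median -1.68), most of all the Argonaute genes wago-4 (-3.22), wago-1 (-2.48) and alg-4 (-2.44). None of the 16 was called on RNAi in the double mutant by limma or edgeR (median -0.80), and 7 had an unadjusted limma p under 0.05 (30.6% of all genes). Against wild type on RNAi, 4 of 16 fell in Δmetr-1 and 2, wago-4 and alg-4, in the double mutant. Of 12 tested embryonic germ plasm factors, whose transcripts are loaded into oocytes, 2 fell on RNAi in Δmetr-1, spn-4 (-4.16) and pos-1 (-4.13), and 0 in the double mutant by limma or edgeR, also at an unadjusted p under 0.05 in limma (medians -2.90 and -0.35). Against wild type on RNAi, 1 of the 12, spn-4, fell in Δmetr-1 and 0 in the double mutant, where 5 had an unadjusted limma p under 0.05, near the 38.1% of all genes that had. Of 11 germline translation regulators, 7 fell on RNAi in Δmetr-1 (median -2.24), with gld-1 (-3.001), a repressor of translation in meiotic prophase, daz-1 (-2.60), needed for oogenesis, and gld-3 (-2.44), a partner of a cytoplasmic poly(A) polymerase, changing most. None of the 11 was called on RNAi in the double mutant by limma or edgeR (median -0.99), and 6 had an unadjusted limma p under 0.05 (30.6% of all genes). Against wild type on RNAi 5 of 11 fell in Δmetr-1 and 3 (nos-3, daz-1 and fbf-2) in the double mutant. No gene of these 4 lists rose in any of the 4 comparisons.

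On vector, no member was called in either mutant by limma, edgeR or DESeq2. In Δmetr-1 the log2 changes against wild type ran from -0.00 (pgl-1) to 0.66 (glh-2), with 95% intervals reaching from -0.80 to 1.71, and 0.113% of all genes were called. The median change of the 6 was 0.23, and it was -0.27 without replicate 1 of Δmetr-1, the library high in oocyte and yolk markers, and 0.86 without replicate 2. In the double mutant the changes ran from -0.61 (pgl-1) to 0.12 (glh-4), with intervals from -1.54 to 1.146, and 0.26% of all genes were called. The libraries of 3 members, among them pgl-1 (59.0 and 71.0 CPM against 102 and 96.5 CPM), were below wild type without overlap, as were those of 25% of all genes tested. No member had an unadjusted limma p under 0.05 in either, and 8.42% and 13.3% of all genes did.

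On nhr-114 RNAi in wild type, the changes ran from -0.34 (deps-1) to 0.19 (glh-4). The 95% intervals of the 6 reached from -1.27 to 1.22, the widest bounds over the 6 genes. Changes within a gene's own interval are therefore not excluded for that gene. For pgl-1 the change was -0.10, with an interval from -0.80 to 0.61. Of all genes tested 0% were called by limma and 0% by edgeR, DESeq2 called none either, and no member had an unadjusted p under 0.05 (1.22% of all genes). Replicate 1 of wild type on RNAi is 1 of the libraries in which nhr-114 was high.

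In the first experiment, P granule genes showed no called change with methionine or with loss of nhr-114. The scaffold gene pgl-1 was at 87.2 and 78.7 CPM in wild type without methionine and 68.4 and 94.3 CPM with it, and in Δnhr-114 at 49.8 and 107 CPM without and 117 and 82.3 CPM with it. For glh-1 the values were 122 and 141 CPM, then 127 and 184 CPM in wild type, and 81.7 and 132 CPM, then 166 and 142 CPM in Δnhr-114. The libraries of wild type and Δnhr-114 overlapped for all 6 members at either methionine level. Of the 10948 genes tested, 981 were lower and 1951 higher in Δnhr-114 without overlap when untreated. With methionine, 1084 were lower and 1309 higher.

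**Figure D5:**
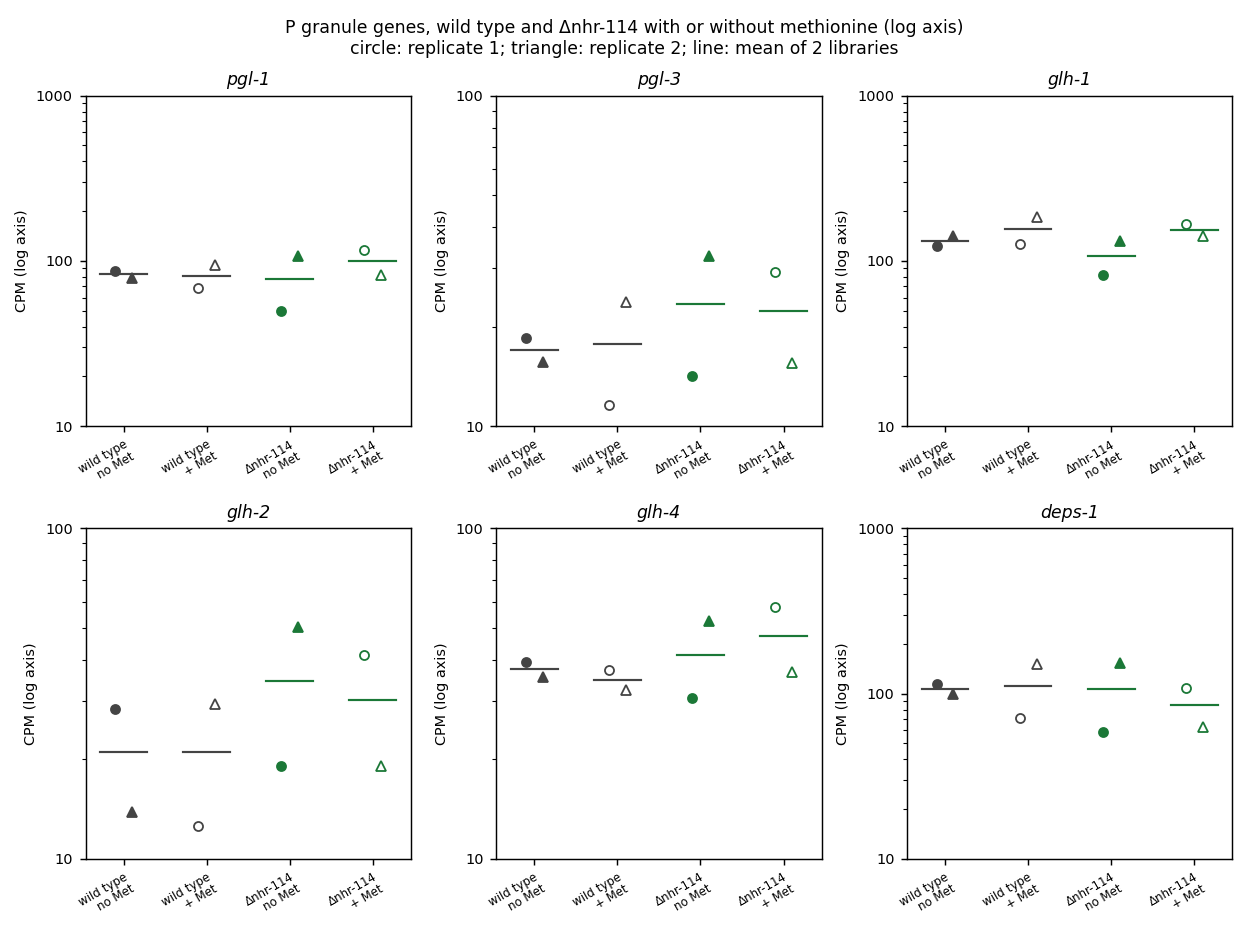
Level of each P granule gene in the 8 libraries of the first experiment, in CPM on log axes, by strain and methionine (filled, without; open, with 25 mM methionine; circle, replicate 1; triangle, replicate 2; line, mean of 2 libraries). Groups that differ in strain or in methionine alone overlap in each panel except for glh-1 in Δnhr-114, where both libraries with methionine lie above both without.

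The other members had the same spread. The gene pgl-3 was at 18.4 and 15.6 CPM in untreated wild type, 11.6 and 23.8 CPM with methionine, and in Δnhr-114 at 14.1 and 32.7 CPM without and 29.2 and 15.5 CPM with it. The gene deps-1 was at 113.9 and 99.2 CPM and at 71.4 and 152 CPM in wild type, and at 58.3 and 154 CPM and at 108 and 62.7 CPM in Δnhr-114, in the same order. The lower and the higher library of a group thus fell on the same replicate for these genes. The gene glh-2 ranged from 12.6 to 50.1 CPM and glh-4 from 30.6 to 57.9 CPM over the 8 libraries.

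The highest of the 8 values of pgl-3, glh-2 and deps-1 was in replicate 2 of Δnhr-114 without methionine. That library also had 3713 CPM of the 10 oocyte genes, where replicate 1 of its group had 270 CPM, 2666 CPM of yolk genes, where replicate 1 had 57.1 CPM, and 1127 CPM of cuticle genes, where replicate 1 had 7250 CPM. The 9 meiosis genes summed to 920 CPM in it and to 474 CPM in replicate 1. Divided by that sum, the 6 members came to 0.573 and 0.535, and over all 8 libraries to 0.535 to 0.724. The part of stage in these values was not tested.

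With methionine, the log2 changes of the 6 ran from -0.10 to 0.22 in wild type and from -0.20 to 0.56 in Δnhr-114. Between Δnhr-114 and wild type they ran from -0.34 to 0.62 without methionine and from -0.34 to 0.52 with it, and the interaction ran from -0.17 to 0.47. The 95% intervals of these 5 comparisons reached from -2.36 to 2.22. No member was called by limma, edgeR or DESeq2. Of the 10948 genes tested, limma and edgeR called 0% in any of the 5, and DESeq2 called 17, 43, 85, 3 and 22 in the order above. Limma thus did not call the deleted nhr-114 either, at 0.445 and 0.703 CPM in Δnhr-114 without methionine against 29.0 and 36.6 CPM in wild type. The lack of limma calls therefore says little about the members. No member had an unadjusted p under 0.05, as 1.15%, 4.36%, 4.53%, 0.859% and 2.14% of all genes did in limma in the same order. In Δnhr-114 both libraries with methionine were above both without for 1 member, glh-1, as they were for 11.5% of all genes. The median change of the 6 depended on single libraries. With methionine in wild type it was -0.03, and 0.47 without replicate 1 of the methionine group. In Δnhr-114 it was 0.09 with methionine, and -0.39 or 0.57 without replicate 1 or 2 of the untreated group, and the untreated comparison with wild type went from -0.03 to 0.50 without replicate 1 of Δnhr-114.

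For each member, the 3 genes with the most similar levels were found among 10812 genes tested in both experiments, by Pearson's r of log2(CPM + 1) over 20 libraries after the mean of each experiment was subtracted. They were gldi-11, Y111B2A.2 and air-1 for pgl-1 (r = 0.985 to 0.989), plk-1, K07A1.1 and Y4C6B.1 for pgl-3 (0.983 to 0.987) and tofu-7, Y111B2A.2 and F42A9.6 for glh-1 (0.960 to 0.966). For glh-2 they were wdr-5.3, car-1 and zif-1 (0.9752 to 0.9762), for glh-4 ani-2, hpo-40 and herd-1 (0.972 to 0.974) and for deps-1 snrp-40.2, sun-1 and W05F2.6 (0.969 to 0.971). Libraries of a group share strain and food, the libraries differ in depth and in oocyte, yolk and cuticle markers, and the 4 mutant libraries on RNAi lie apart from the others. Over the 16 libraries without them, r was 0.750 to 0.786 for the 3 genes of glh-1 and 0.881 to 0.966 for those of the other members.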

How the data were processed

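Sequencing by the authors followed a CEL-seq2 protocol with changes, which reads the 3′ ends of transcripts. The authors trimmed reads with Trimmomatic 0.32, aligned them with STAR and counted 3′ ends with ESAT on a WormBase gene set. The deposited tables are named TPM but hold CPM, counts per 1000000 with no length term: each column sums to 1000000, and 100% of values were whole multiples (within 0.02) of 1 step per library, from which reads were recovered. Of the 39341 gene IDs, 39258 were found in Ensembl release 115 (WBcel235), which gave the positions, and 38468 carried a symbol, and 0 columns were left unmapped. The cell type lists and germline lists were matched by symbol, and 17 of 18 small RNA factors were found.

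Comparisons were tested (two-sided) with limma 3.58.1 under R 4.3.3 on log2(CPM + 1), which understates changes of low genes, with all groups of an experiment in 1 model and trended, robust empirical Bayes. Genes had to reach 5 CPM in 2 libraries, and p-values were adjusted by Benjamini-Hochberg over all of them in each of 14 comparisons, 3 of them interactions. The experiments were not compared. Alternatives were pseudocounts of 0.5 and 5, no filter or 20 CPM, median-of-ratios scaling, edgeR 4.0.16 and DESeq2 1.42.0 on recovered reads, the compared libraries alone, a replicate block and each library left out. Leaving out the 3 RNAi libraries of replicate 1 was added after seeing the data. The methods were tested on simulated data. The members and the lists were chosen with earlier results of these data known. All 6 members are named, and in each other list at most the 3 called genes with the largest absolute change; pgl-2, glh-3, perm-2 and perm-4 were named after their values were seen, as were fog-3 and gsp-3. Counting intervals and limits cover counting error only.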

Additional observations from a re-analysis of the deposited data

How the results depend on the processing

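Over 22 alternatives no log2 change of a member turned its sign in the comparisons given gene by gene, and of 792 such values 675 kept their side of the threshold, 87 lost a call and 30 gained one. The count of members called on RNAi in Δmetr-1 (6) was 0 when only the compared libraries were fitted, which called 0 of all genes, 0 without the 3 RNAi libraries of replicate 1, and 1 to 6 with each library left out. On RNAi in the double mutant (2) it was 1 with a pseudocount of 5 or a filter of 20 CPM, 0 with no filter, with the compared libraries only or without those 3, and 0 to 3 with each library left out. Against wild type on RNAi it was 0 without those 3 in Δmetr-1 (4; 1 to 6 with each library left out), and in the double mutant (2) 5 by DESeq2, 1 with the compared libraries only, 0 without those 3 and 0 to 5 with each left out. The interactions (0 and 0) were 5 and 1 by DESeq2, and 0 to 6 and 0 to 0 with each library left out. Fewer libraries entered the fits without libraries, and otherwise the cause was not tested. The main fit did not use the replicate numbers as pairs. Deviations of same-numbered libraries correlated from -0.66 to 0.31 over 6 pairs of groups in the first experiment, with 2 over 0.1 and 3 under -0.1. In the second they correlated from -0.47 to 0.68 over 15 pairs, with 6 over 0.1 and 3 under -0.1. High nhr-114 was in replicate 1 of each RNAi group, and whether the replicate numbers mark a shared batch was not tested. With a replicate block the counts were 6, 2, 5, 2, 0 and 0 in the order above, and 0 in the other comparisons. The range of limma, edgeR and DESeq2 adjusted p for pgl-1 on RNAi was 3.65e-12 to 0.0391 in Δmetr-1 and 0.000211 to 0.0982 in the double mutant. Depth limits pgl-3 most, at 30 reads in its shallowest library of the second experiment.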
